A study of Mus musculus with 8 samples.

Results

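The cytosolic ribosomal protein genes were taken as all genes of the deposited table whose symbol begins with Rpl or Rps followed by a number, together with *Rplp0*, *Rplp1*, *Rplp2* and *Rpsa*. Genes of the Rps6k kinases and names with -ps, which mark pseudogenes, were left out. The rule gave 84 of the 17362 genes in the table. Of these, 77 encode ribosomal proteins proper, 46 of the large subunit including the stalk and 31 of the small subunit. The other 7 have names that mark a paralog or another protein (*Rpl7l1*, *Rpl22l1*, *Rpl36al*, *Rpl37rt*, *Rps27l*, *Rps4l* and *Rps19bp1*). The rule uses names only, and the table carries no protein product.

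Every cell makes the cytosolic ribosome from 1 set of proteins, joined to ribosomal RNA in the nucleolus and exported as a small and a large subunit. The mRNAs of these proteins start with a cytosine followed by a run of pyrimidines, the terminal oligopyrimidine tract, through which the mTOR pathway controls how much of each mRNA is translated. The genes are short and highly transcribed, and many carry small nucleolar RNAs in their introns. In beta cells, which translate large amounts of insulin, ribosome supply is tied to the demand for secretion.

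Pancreatic islets were from wild type (WT) mice and from mice that carry the S983A allele of Med14 in the whole body (a serine to alanine change in the scaffold subunit of the Mediator complex, here the mutant; listed as C57BL/6J). Cultured islets of both genotypes were left untreated (CON), exposed to Exendin-4 (Ex-4, 10 nM for 16 h), a peptide that stimulates the GLP-1 receptor, or given forskolin (FSK), a direct activator of adenylyl cyclase whose dose and time are not in the labels. The paper isolated nuclei from about 100 islets per sample and does not say how many samples made up a condition. These nuclei were sorted on DNA stain, barcoded together and sequenced as 8 sublibraries that each hold all 6 conditions. The sources used here give neither age nor sex of the animals, nor how many animals a pool of islets came from.

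The table holds 1 pooled column per condition and cell type (6 conditions, 9 cell types), so there was no replicate of a condition and no test could be run. Condition cannot be told apart from islet pool or barcode well. Whole counts were recovered from the deposited values, and the intervals given are 95% intervals for the counting error only. Levels are counts per 10000 counts of a column (CP10K). Beta cell columns held 1915006 to 3094377 counts, alpha cell columns 269394 to 810127 and delta cell columns 362410 to 631433. Of the cell type markers in the table, 8 of 9 beta, 5 of 7 alpha and 4 of 4 delta markers were highest in the columns so labelled. *Med14* itself ranged from 0.384 CP10K in mutant CON to 0.753 in WT FSK beta cells, and a point mutation need not change its amount. A share of a column can differ because ribosomal protein RNA differs or because the rest of the RNA does, and these cannot be told apart.

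To show where the terminal oligopyrimidine tract would lie, the DNA around the annotated start is given for 9 members. They were picked as examples, 5 with a pyrimidine run at the start and 4 without. They cover the large subunit (*Rpl4*, *Rpl13a*, *Rpl41*, *Rpl5*), the small subunit (*Rps24*, *Rps18*, *Rpsa*), the stalk (*Rplp2*) and a paralog (*Rpl7l1*). The windows come from RefSeq (GRCm38.p6), which had 74 windows for 63 of the 84 members, and are printed 5′ to 3′ on the strand of the gene, from 30 bases before the start to 20 bases from it. Capitals mark a run of at least 8 pyrimidines that reaches within 5 bases of the start.
Rps24 (chr14:24490648-24490697, plus strand): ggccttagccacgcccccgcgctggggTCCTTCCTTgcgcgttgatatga
Rpl4 (chr9:64173357-64173406, plus strand): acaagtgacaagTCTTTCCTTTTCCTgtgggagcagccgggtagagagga
Rpl13a (chr7:45128726-45128775, minus strand): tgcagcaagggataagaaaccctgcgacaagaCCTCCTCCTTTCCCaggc
Rplp2 (chr7:141447621-141447670, plus strand): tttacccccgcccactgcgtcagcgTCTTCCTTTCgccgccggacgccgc
Rps18 (chr17:33955646-33955695, minus strand): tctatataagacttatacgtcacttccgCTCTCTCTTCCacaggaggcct
Rpl41 (chr10:128549149-128549198, minus strand): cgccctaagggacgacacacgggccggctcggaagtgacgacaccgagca
Rpl5 (chr5:107900498-107900547, plus strand): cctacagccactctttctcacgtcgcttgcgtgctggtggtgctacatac
Rpsa (chr9:120127736-120127785, plus strand): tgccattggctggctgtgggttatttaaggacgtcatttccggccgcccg
Rpl7l1 (chr17:46782637-46782686, minus strand): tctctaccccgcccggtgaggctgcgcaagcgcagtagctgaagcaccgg
The first 5 carry such a run and the last 4 do not, although *Rpl5* has a run of pyrimidines further from its annotated start. *Rps24* has another annotated window (chr14:24490723-24490772), not printed, that lacks such a run.

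Over all member windows, 24 of 74 held a pyrimidine run of at least 8 at the start (32.4%), against 9.72% of all 32851 windows in the table. The core of the CREB site, TGACGTCA, stood in 6.76% of member windows and 1.79% of all windows, when both strands of the window (250 bases before the start and 50 from it) were searched. The shorter TGACG, which every full site also contains, stood in 43.2% of member windows and 20.8% of all. CCGGAAG, a core that ETS family factors can bind, was found in 35.1% and 8.86%. The TATAAA box was found in 9.46% and 13.6%. These matches describe letters in a window and not binding, and annotated starts can lie some bases from the true one.

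In beta cells, ribosomal protein RNA was lowest in WT CON and after FSK, and higher in WT Ex-4 and in the untreated mutant, where it exceeded WT CON by 2.28 and 2.17 times. The summed level of the 84 genes in WT CON was 6.23 CP10K (5.96 to 6.52; 1878 counts), that in WT Ex-4 14.2 (13.8 to 14.6; 4236 counts) and that in WT FSK 4.31 (4.08 to 4.55; 1333 counts). In mutant beta cells it was 13.5 (13.0 to 14.1; 2607 counts) in CON, 13.0 (12.5 to 13.5; 2492 counts) in Ex-4 and 7.83 (7.47 to 8.20; 1803 counts) in FSK. WT Ex-4 and the mutant CON and Ex-4 columns therefore formed a high group, the other 3 a low one, and within the high group only the intervals of WT Ex-4 and mutant Ex-4 were apart.

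**Figure D1:**
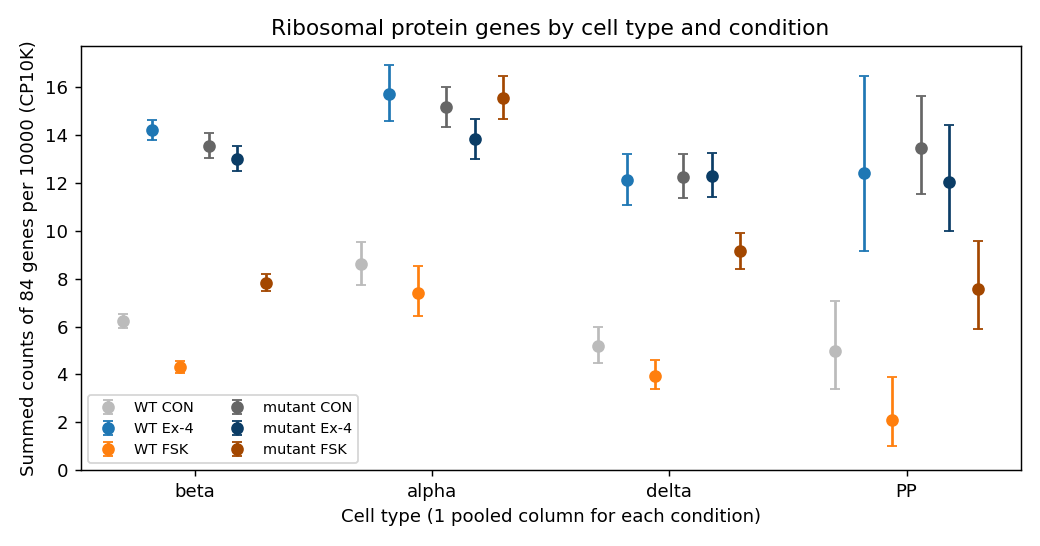
Summed level of the 84 ribosomal protein genes (CP10K, vertical axis) in the 6 conditions of beta, alpha, delta and PP cells; points are single pooled columns and bars are 95% counting intervals. WT Ex-4 and both of mutant CON and mutant Ex-4 sit between 12.1 and 15.7 in all 4 cell types, and WT CON and WT FSK sit between 2.11 and 8.61.

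In the other endocrine cells WT CON and WT FSK were again below WT Ex-4 and the CON and Ex-4 columns of the mutant, while the order among the latter 3 differed between cell types. Alpha cells held 8.61 CP10K (7.75 to 9.55) in WT CON, 15.7 in WT Ex-4 and 7.42 (6.43 to 8.53) in WT FSK, and 15.2, 13.8 and 15.6 (14.7 to 16.5) in mutant CON, Ex-4 and FSK, so that FSK did not give a lower value in mutant alpha cells. Delta cells held 5.19, 12.1 and 3.95 in WT CON, Ex-4 and FSK and 12.3 (11.4 to 13.2), 12.3 (11.4 to 13.3) and 9.15 in the mutant. PP cells, which make pancreatic polypeptide, had WT levels of 4.98, 12.4 and 2.11 and mutant levels of 13.5, 12.1 and 7.58, on 10 to 172 counts.

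Cells outside the endocrine lineage were counted too thinly for single genes, but their sums could be read. Endothelial cells of WT CON, WT Ex-4 and mutant CON held 6.70 CP10K (5.33 to 8.31), 11.3 (8.72 to 14.5) and 18.0 (16.0 to 20.2). Macrophages held 11.3 (8.28 to 14.98), 19.5 (13.4 to 27.4) and 21.7 (17.7 to 26.3). Muscle cells held 19.1 (14.1 to 25.2), 26.1 (21.0 to 32.0) and 18.5 (15.3 to 22.3), so that all 3 intervals overlapped. Against WT CON, WT Ex-4 was 1.69-fold in endothelial cells (1.20 to 2.38), 1.73-fold in macrophages (1.07 to 2.76) and 1.37-fold in muscle cells (0.957 to 1.98), where the interval holds 1. Mutant CON was 2.69-fold (2.10 to 3.48), 1.92-fold (1.35 to 2.78) and 0.972-fold (0.689 to 1.39), so that in muscle cells it was not higher. Mutant Ex-4 against mutant CON gave 0.852, 0.837 and 1.23, WT FSK against WT CON 1.15, 0.681 and 0.510, and mutant FSK against mutant CON 0.945, 0.348 and 0.912. Of these FSK and mutant Ex-4 ratios only WT FSK in muscle cells (0.334 to 0.776) and mutant FSK in macrophages (0.168 to 0.649) had intervals without 1. Ductal cells of WT CON had 0 of 1522 counts, with an exact interval up to 24.2 CP10K (19.7 at 3 counts), and neurons rested on as few as 1 count.

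The response of WT islets to Ex-4 was asked first. In beta cells the sum was 2.28-fold higher in WT Ex-4 than in WT CON (2.16 to 2.41), with 1.83-fold in alpha cells (1.61 to 2.08) and 2.33-fold in delta cells (1.97 to 2.77). The same WT CON columns serve in the comparisons with the mutant baseline and with WT FSK below. The large subunit was 2.54-fold higher in beta cells (2.35 to 2.74) and the small subunit 2.06-fold (1.89 to 2.24), while the 7 paralogs and other proteins together were 1.62-fold higher (1.22 to 2.17).

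Single members are scarce in these nuclei, where the highest beta cell level of any of them was 0.872 CP10K (*Rps24* in WT Ex-4). A filter on low values, the 40th percentile of the mean over conditions, kept 62 of the 84 members among 10093 beta cell genes and 22 did not pass. The threshold of 0.585 (1.5-fold) on log2(CP10K + 1) needs far more than 1.5-fold in such genes, and 0 of 62 members passed it in WT Ex-4 against WT CON, where 3.12% of all kept genes did. On linear CP10K, with 0.1 times the median of kept genes (0.0322 CP10K) added to both values, 50 of 62 were at least 1.5-fold higher and 0 lower, where 23.0% of kept genes were higher and 10.7% lower. The median member ratio on that scale was 1.91 and the median of all kept genes 1.10. Of 36 members kept in beta, alpha and delta cells, 30 were higher after Ex-4 in all 3, against 36.9% of the 8561 genes kept in all 3. *Rps14* alone was lower in all 3.

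Medians over the members that passed the filter are given on log2(CP10K + 1), where differences of scarce genes are small. In WT Ex-4 against WT CON the median difference was 0.11 over 62 members in beta cells, 0.11 over 60 in alpha cells and 0.15 over 37 in delta cells, and the medians of all kept genes were 0.03, 0.02 and 0.05. In mutant Ex-4 against mutant CON the member medians were -0.0087, -0.0268 and 0.0268, beside -0.0085, -0.0203 and -0.0132 for all kept genes. In mutant CON against WT CON they were 0.11, 0.10 and 0.15, beside 0.0001, -0.0036 and 0.0171 for all kept genes. In WT FSK they were -0.0264, -0.0378 and -0.0169, beside -0.055, -0.0406 and -0.0281 for all kept genes. On linear CP10K this order turned, with member medians of -0.33, -0.37 and -0.16 (log2) below the -0.28, -0.17 and -0.13 of all kept genes. In mutant FSK they were -0.0809, -0.0058 and -0.0389, below the -0.0248, 0.0227 and 0.004 of all kept genes.

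**Figure D2:**
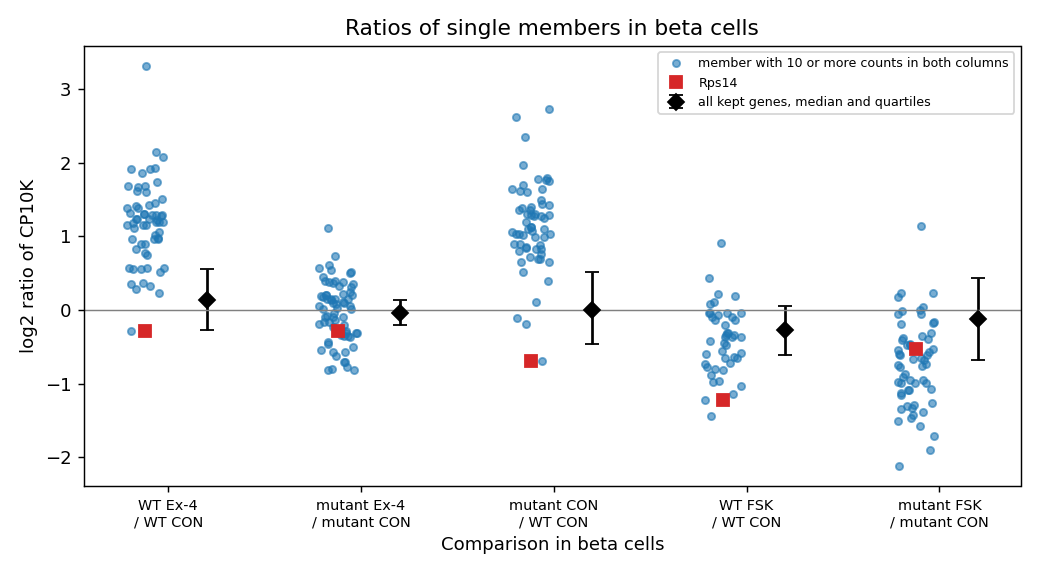
Log2 ratio of CP10K (vertical axis) for each member with 10 or more counts in both beta cell columns (blue points; red square, *Rps14*), beside the median and quartiles of all kept genes (black), in 5 comparisons. Most members lie above 0 in WT Ex-4 / WT CON and mutant CON / WT CON, with medians of all kept genes of 0.14 and 0.00.

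Among members of the large subunit, *Rpl4*, a protein whose loop lines the exit tunnel, was counted 81 times in WT CON, 257 in WT Ex-4 and 97 in WT FSK, and 139, 144 and 86 times in mutant CON, Ex-4 and FSK beta cells. It was 3.21-fold higher per 10000 counts in WT Ex-4 than in WT CON (2.49 to 4.17). *Rpl3*, which lies near the peptidyl transferase centre, had 60, 145 and 116 counts in WT CON, Ex-4 and FSK and 65, 80 and 88 in the mutant. It was 2.44-fold higher after Ex-4 in WT (1.80 to 3.36), and unlike the sum it was also 1.88-fold higher after FSK (1.37 to 2.62). *Rpl6* had 59, 115 and 59 counts in WT and 61, 79 and 86 in the mutant, and its ratio after Ex-4 was 1.97 (1.43 to 2.74).

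*Rpl5*, which binds 5S ribosomal RNA and, when free, the p53 regulator Mdm2, had 50, 73 and 26 counts in WT CON, Ex-4 and FSK and 70, 54 and 28 in the mutant. Its ratio after Ex-4 in WT was 1.48 (1.02 to 2.16). *Rpl10*, which joins the subunit late in its assembly, had 38, 84 and 20 counts in WT and 62, 55 and 30 in the mutant. *Rpl13a*, which can also leave the ribosome to act in the GAIT complex, had 45, 142 and 44 counts in WT and 70, 106 and 63 in the mutant, and was 3.19-fold higher after Ex-4 in WT (2.27 to 4.56). *Rpl41*, the smallest ribosomal protein, had 29, 109 and 27 counts in WT and 57, 58 and 32 in the mutant, and was 3.80-fold higher after Ex-4 (2.502 to 5.94). *Rpl41* has no pyrimidine run in the window shown above and *Rpl4* and *Rpl13a* have one.

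Among members of the small subunit, *Rps24*, needed for maturation of 18S ribosomal RNA, was counted 92 times in WT CON, 260 in WT Ex-4 and 43 in WT FSK, and 166, 155 and 53 times in the mutant columns. It was 2.86-fold higher in WT Ex-4 than in WT CON (2.24 to 3.66). *Rps15a* had 47, 69 and 38 counts in WT and 56, 45 and 48 in the mutant. *Rps3*, at the mRNA entry channel, stood out after its values were seen, with 13 counts in WT CON, 128 in WT Ex-4 and 13 in WT FSK and 51, 65 and 24 in the mutant. Its ratio after Ex-4 in WT was 9.95 (5.62 to 19.2), the highest among members plotted. *Rps3* overlaps *Gdpd5* and *Klhl35* on the opposite strand, and the sources used here do not say if counting was by strand.

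*Rps14* lies next to the mRNA in the platform of the small subunit. In beta cells it was lower where the sum was higher, in WT Ex-4 and in mutant CON. It was also lower there under FSK, like the sum, while mutant alpha cells held 0.560 CP10K of it in FSK and 0.296 in CON. It had 195 counts in WT CON, 158 in WT Ex-4 and 86 in WT FSK, and 77, 63 and 64 in mutant CON, Ex-4 and FSK beta cells, so its level was highest in WT CON at 0.647 CP10K (0.560 to 0.745). Its ratio was 0.819 after Ex-4 in WT (0.660 to 1.02) and 0.618 in mutant against WT CON (0.468 to 0.808), with an interval that holds 1 for the first of these. Under FSK it was 0.429 in WT (0.329 to 0.556) and 0.695 in the mutant (0.491 to 0.981). Its annotated gene, 31479 bp on chromosome 18 in GRCm39, overlaps *Ndst1* on the opposite strand. *Ndst1* stayed between 0.831 and 0.946 CP10K in the 6 beta cell columns. Leaving *Rps14* out raised the WT Ex-4 ratio of the sum to 2.45.

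**Figure D3:**
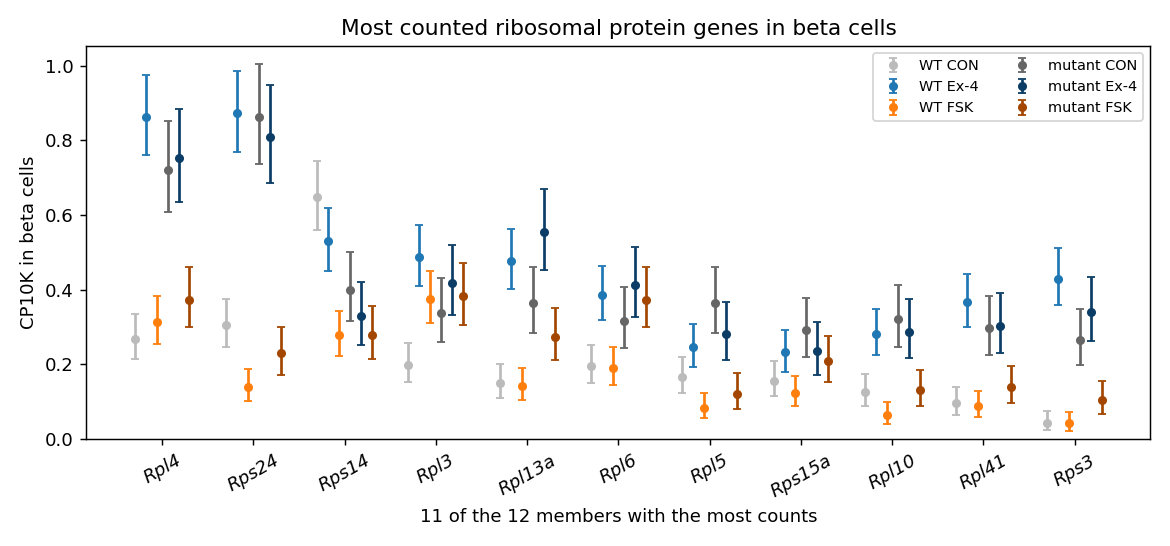
Level (CP10K, vertical axis) of 11 of the 12 members with the most counts in the 6 conditions of beta cells; points are single pooled columns and bars 95% Poisson intervals. *Rps24* and *Rpl4* reach 0.872 and 0.862 in WT Ex-4 from 0.305 and 0.269 in WT CON, and *Rps14* is highest in WT CON.

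The stalk proteins recruit and activate the translation factors that bind GTP. *Rplp0*, their base, had 13, 57 and 10 counts in WT CON, Ex-4 and FSK and 27, 24 and 8 in the mutant, a ratio of 4.43 after Ex-4 in WT (2.40 to 8.82). *Rplp2* had 15, 29 and 12 counts in WT and 20, 25 and 12 in the mutant. *Rplp1* had at most 4 counts in any beta cell column and is treated with the genes listed at 0 below. *Rpsa*, a small subunit protein that was first described as a laminin receptor, had 26, 63 and 25 counts in WT and 45, 36 and 42 in the mutant, with a ratio after Ex-4 in WT of 2.45 (1.53 to 4.03).

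Of the paralogs and other proteins, *Rpl7l1*, a nucleolar paralog of *Rpl7*, had 41, 52 and 27 counts in WT CON, Ex-4 and FSK and 55, 31 and 27 in the mutant. Its ratio after Ex-4 was 1.28 in WT (0.835 to 1.98) and 0.567 in the mutant (0.353 to 0.896). *Rps19bp1*, a protein that binds the ribosomal protein of *Rps19*, had 7, 24 and 4 counts in WT and 6, 13 and 3 in the mutant. *Rpl22l1*, a paralog of *Rpl22*, had 12, 17 and 14 counts in WT and 24, 14 and 17 in the mutant. *Rpl36al* had 5 to 23 counts and *Rpl37rt* 1 to 16 counts in a beta cell column. These 2 and *Rps4l* are close copies of other ribosomal protein genes, so that reads may be split between copies.

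The members differ widely in how often they were counted. Over all columns they gave 24584 counts, of which the 10 most counted, *Rpl4*, *Rps24* and *Rps14* first among them, held 34.1%. Per kb of the annotated transcript, the mean beta cell level was 0.674 CP10K per kb for *Rps14*, 0.383 for *Rpl41*, 0.316 for *Rps24*, 0.312 for *Rpl13a* and 0.277 for *Rpl4*, an order that takes no account of reads from introns. The members lie on 19 chromosomes (83 matched to GENCODE M39), and 30 of them hold annotated small nucleolar RNAs in the gene, 59 in all. Of the 10 most counted, 7 do. Ribosomal protein genes have many processed pseudogenes close to them in sequence (322 Rpl or Rps genes with -ps names in GENCODE M39, where the table has 8 such names), and reads may be split between copies. None of the 84 was at 0 in all 6 beta cell columns, and 76 had a count in each.

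Another 8 members were listed at 0 in every cell type of at least 1 condition. *Rpl15*, *Rpl27* and *Rps29* were at 0 in mutant Ex-4, *Rpl36a*, *Rpl39* and *Rplp1* in WT Ex-4 and mutant Ex-4, *Rps4l* in both of these and WT FSK, and *Rps27l* in both of these and mutant CON. They had 25 to 75 counts over all columns. Among all genes, 5918 were listed at 0 in mutant Ex-4 and 5048 in WT Ex-4, against 1765 in WT CON and 387 in mutant FSK. These zeros were therefore not read as absence, and leaving the 8 genes out kept every ratio of the sum within its counting interval.

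Whether Ex-4 had the same reach in mutant islets was asked next. In mutant beta cells the sum was 0.961-fold of mutant CON after Ex-4 (0.909 to 1.02), in alpha cells 0.912-fold (0.840 to 0.990) and in delta cells 1.00-fold (0.902 to 1.12). On log2(CP10K + 1), 0 of 62 members passed 1.5-fold, with 0.0495% of kept genes past it. On the linear scale 2 were higher (*Rpl8* and *Rps25*) and 4 lower (*Rpl7*, *Rpl7l1*, *Rpl12* and *Rpl30*), with 2.47% and 3.40% of kept genes called. *Rpl13a* was the highest of the 11 members with at least 50 counts in both columns, at 1.52-fold (1.12 to 2.09), and *Rpl5* the lowest, at 0.776-fold (0.534 to 1.12). The Ex-4 columns of the genotypes stood close, with mutant Ex-4 at 0.916-fold of WT Ex-4 in beta cells (0.871 to 0.963), 0.879-fold in alpha cells (0.799 to 0.967) and 1.02-fold in delta cells (0.905 to 1.14).

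The baseline of the genotypes differed. Mutant CON beta cells were 2.17-fold above WT CON (2.05 to 2.31), with 1.76-fold in alpha cells (1.56 to 1.99) and 2.36-fold in delta cells (2.01 to 2.79). The large subunit was 2.44-fold higher in beta cells (2.24 to 2.65) and the small subunit 1.87-fold (1.70 to 2.05). On log2(CP10K + 1), 0 of 62 members passed 1.5-fold, with 5.34% of kept genes past it, and on the linear scale 50 were higher and 1 lower, with 22.0% and 20.1% of kept genes. The member called lower was *Rps14*. Of the 36 members kept in the 3 cell types, 29 were higher in all 3 (33.0% of all genes kept there), and *Rps14* was the only one lower in all 3. *Rps24* was 2.82-fold higher (2.18 to 3.68), *Rpl4* 2.69-fold (2.03 to 3.58), *Rpl5* 2.19-fold (1.502 to 3.22), *Rpl3* 1.70-fold (1.18 to 2.45) and *Rpl6* 1.62-fold (1.11 to 2.35).

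FSK, which raises cAMP by another route, went with lower shares in WT beta and delta cells, though the direction turned when the sum was set against other short genes (1.20 in beta and 1.10 in delta cells, described with gene length below). In WT beta cells the sum was 0.691-fold of WT CON (0.644 to 0.742), in delta cells 0.762-fold (0.615 to 0.943) and in alpha cells 0.862-fold (0.722 to 1.03), where the interval holds 1. The small subunit stood at 0.576-fold (0.515 to 0.644) and the large subunit at 0.798-fold (0.725 to 0.878) in beta cells. On log2(CP10K + 1), 0 of 62 members passed 1.5-fold, with 2.24% of kept genes past it. On the linear scale 1 was higher and 18 lower, with 6.23% and 27.0% of kept genes, so that the share of members called lower was near that of all genes. The member called higher was *Rpl3*. Lower in all 3 cell types were 14 of 36 members, against 28.5% of genes. Among the 4 members with at least 50 counts in both columns, *Rpl4* stood at 1.17-fold (0.859 to 1.59) and *Rpl6* at 0.974-fold (0.667 to 1.42).

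In mutant beta cells FSK went with 0.578-fold of mutant CON (0.544 to 0.614) and in delta cells with 0.747-fold (0.668 to 0.835). Against other short genes these turned to 1.07 and 1.06, which in beta cells depended on how their median was taken (described with gene length below). In mutant alpha cells the ratio was 1.03 (0.947 to 1.11). On log2(CP10K + 1), 1 member, *Rps24*, passed 1.5-fold and was lower, with 7.83% of kept genes past the threshold in either direction. *Rps24* stood at 0.267-fold of mutant CON (0.192 to 0.366) and *Rpl4* at 0.517-fold (0.391 to 0.682), while *Rpl6* and *Rpl3* were at 1.18-fold (0.839 to 1.66) and 1.13-fold (0.812 to 1.58). On the linear scale 31 of 62 were lower and 1 higher (*Rps13*), with 28.6% and 20.2% of kept genes. Lower in all 3 cell types were 13 of 36, against 26.9% of genes. Mutant FSK beta cells remained 1.82-fold above WT FSK (1.69 to 1.95), with 2.10-fold in alpha cells (1.80 to 2.45) and 2.32-fold in delta cells (1.95 to 2.77). Against other short genes these 3 ratios were 1.20, 1.29 and 1.37.

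Ratios also differed with gene length in 4 of the 5 comparisons, and the part of this in the results was not tested. The members are short, with a median gene length of 4047 bp against 35828 bp over the kept beta cell genes, and 58 of the 62 kept members fell in the shortest of 4 equal classes of genes by length (up to 17133 bp). In WT Ex-4 against WT CON, the median ratio of the other genes in that class was 1.56, and it went down over the classes to 1.21, 0.988 and 0.785 in the longest. In mutant CON against WT CON the medians ran from 1.504 in the shortest to 0.705 in the longest class. In WT FSK and mutant FSK against their controls they ran the other way, from 0.675 to 0.986 and from 0.611 to 1.37. In mutant Ex-4 against mutant CON they stayed between 0.957 and 0.997. The members of the shortest class had median ratios of 1.91, 1.87, 0.798, 0.660 and 0.992 in these 5 comparisons.

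**Figure D4:**
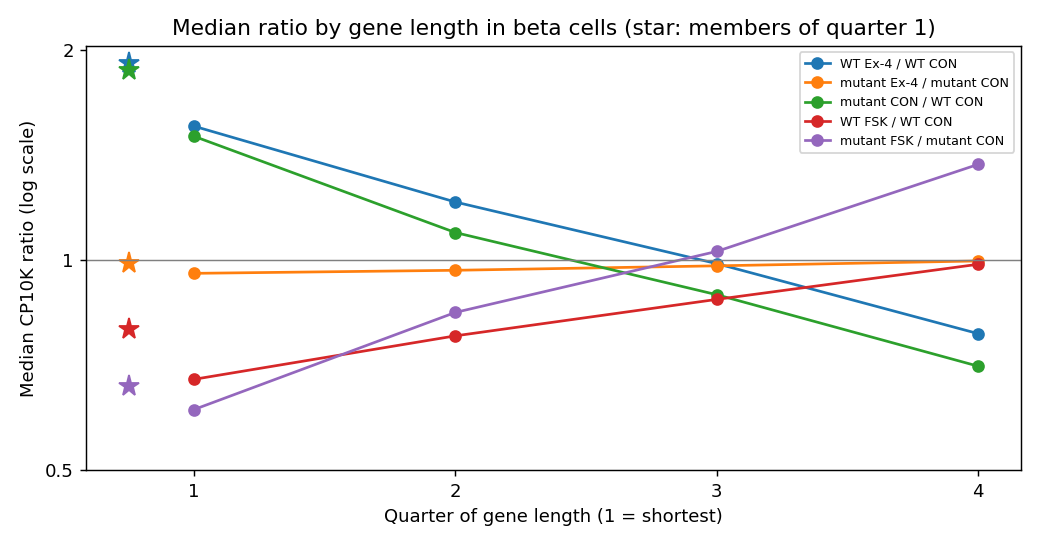
Median CP10K ratio (log scale, vertical axis) of kept beta cell genes in 4 classes of gene length, ribosomal protein genes left out, in 5 comparisons; stars give the median of the 58 members in the shortest class. In WT Ex-4 / WT CON the line goes from 1.56 to 0.785 and the star lies above it at 1.91.

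The sum was also divided by the median of plain ratios of other genes in the shortest class, with genes at 0 in the control left out. The medians above instead have 0.0322 CP10K added to both values. Divided by the plain median, the sum in beta cells was 1.34-fold in WT Ex-4, 1.32-fold in mutant CON and 1.01-fold in mutant Ex-4. The ratios of WT FSK and mutant FSK turned to 1.20 and 1.07 by this divisor. Beside the medians of 0.675 and 0.611 given above, the sum lay above in WT FSK (0.691) and below in mutant FSK (0.578). The turn in mutant FSK thus depended on how the median was taken. In alpha and delta cells the WT Ex-4 ratio became 1.15 and 1.39. The higher level in WT Ex-4 and in mutant CON was thus smaller by the plain median but kept its direction, and the lower level under FSK did not. No interval was computed for these values, and they set a sum against a median of single genes. These divided sums therefore do not show that members were higher than other short genes under FSK. Medians of single genes, with 0.0322 CP10K added, were 0.798 for members of that class and 0.675 for its other genes in WT FSK. In mutant FSK they were 0.660 and 0.611. Whether these medians differ was not tested.

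Other genes of the ribosome and growth programs were followed in beta cells. Translation factors and related genes known for the same tract in their mRNAs (23 genes) were 1.83-fold higher after Ex-4 in WT (1.72 to 1.94), 1.75-fold higher in mutant CON (1.64 to 1.87), 1.01-fold in mutant Ex-4 (0.947 to 1.07) and, unlike the ribosomal protein genes, 1.09-fold in WT FSK (1.03 to 1.17). In mutant FSK they were lower, as the ribosomal protein genes were, at 0.782-fold (0.734 to 0.834). Ribosome biogenesis factors (30 genes), which process ribosomal RNA in the nucleolus, were 1.97-fold (1.86 to 2.07), 2.06-fold (1.94 to 2.18), 0.933-fold (0.884 to 0.985) and, in WT FSK, 0.772-fold (0.723 to 0.824) in the same order, and 0.506-fold in mutant FSK (0.475 to 0.538). Mitochondrial ribosomal protein genes (77 genes) were 1.25-fold higher after Ex-4 in WT (1.19 to 1.32) and 1.10-fold in mutant CON (1.04 to 1.17). Nuclear genes of the respiratory chain (76 genes) stood at 1.20-fold (1.14 to 1.27) and 1.04-fold (0.980 to 1.11). Both differed less than the cytosolic ribosomal protein genes, whose intervals lie above theirs in these comparisons.

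**Figure D5:**
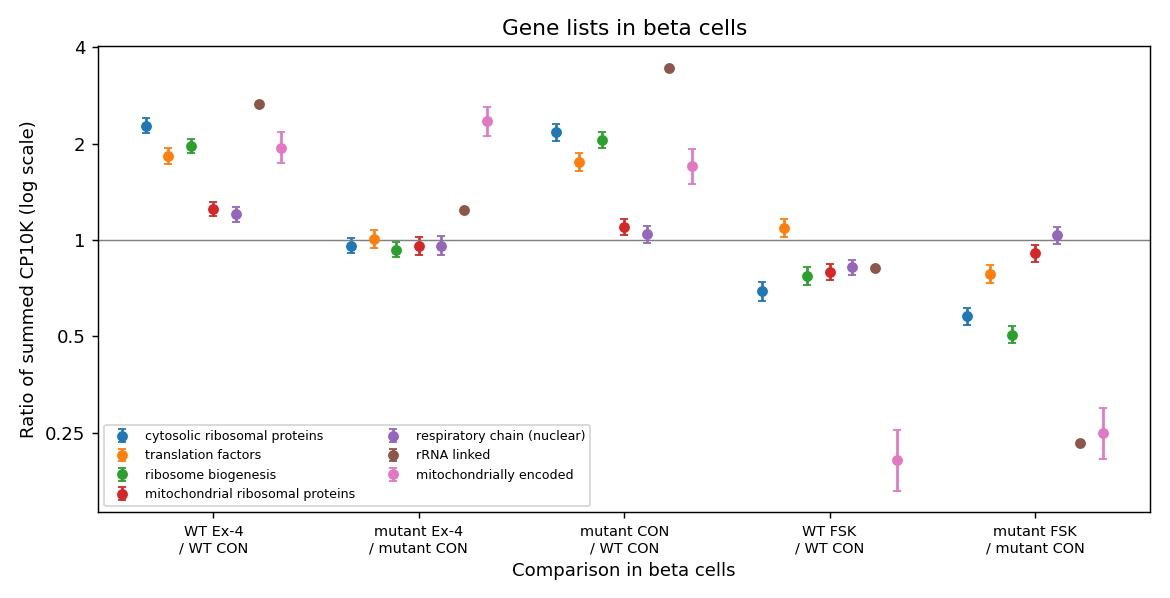
Ratio of summed CP10K in beta cells (log scale, vertical axis) for 7 gene lists in 5 comparisons, with 95% counting intervals. Cytosolic ribosomal proteins lie at 2.28 in WT Ex-4 / WT CON and 0.961 in mutant Ex-4 / mutant CON, and mitochondrial ribosomal proteins at 1.25 and 0.960. In mutant Ex-4 beta cells 58 of the 77 mitochondrial ribosomal protein genes had a count, against 74 in mutant CON. For the 84 members these numbers were 76 and 83.

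Transcripts that reflect RNA quality or background moved with the same columns. The 9 genes whose counts follow ribosomal RNA, such as *Rn18s-rs5*, had a beta cell sum of 346 CP10K in CON, 921 in Ex-4 and 284 in FSK for WT, and of 1193, 1483 and 278 for the mutant. The 6 mitochondrially encoded genes, which a nucleus should not hold, had sums of 1.59, 3.09 and 0.326 for WT, and of 2.70, 6.32 and 0.673 for the mutant. Mutant Ex-4 was thus 2.35-fold above mutant CON in mitochondrial RNA (2.12 to 2.61), with ribosomal protein RNA at 0.961-fold. With both lists taken out of the totals, the WT Ex-4 ratio of the ribosomal protein genes was 2.42 in beta cells and the mutant CON ratio 2.38. Their part in the results was not tested beyond this.

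Of the markers of other cells in the beta cell columns, 4 lists stayed at or below 0.324 CP10K and the alpha cell list did not. Markers of endothelial cells (5 genes) summed to 0.0291 to 0.178 CP10K, of macrophages (3 genes) to 0 to 0.0266, of delta cells (4 genes, *Ghsr* at 0) to 0.0194 to 0.324 and of ductal cells (2 genes) to 0 to 0.0208. The delta cell list was 0.0531, 0.0805 and 0.0194 in WT CON, Ex-4 and FSK and 0.145, 0.324 and 0.0521 in the mutant. It was thus highest in the 3 columns with the highest ribosomal protein sums. The alpha cell list (7 genes) came to 4.68 CP10K in WT Ex-4, 4.77 in mutant CON and 4.90 in mutant Ex-4, and to 7.37, 9.07 and 7.63 in WT CON, WT FSK and mutant FSK, so that it was lower where ribosomal protein RNA was higher. The beta cell list (9 genes) was 64.5, 49.6 and 55.6 CP10K in WT CON, Ex-4 and FSK and 45.8, 46.2 and 52.2 in the mutant, so that it was lowest in the 3 columns with the highest ribosomal protein sums. In alpha cells the alpha list was 118.8, 51.1 and 139.8 CP10K for WT and 49.8, 48.3 and 113.7 for the mutant. It was again lowest in WT Ex-4 and in the CON and Ex-4 columns of the mutant. In mutant FSK alpha cells the list was high although the ribosomal protein sum was 15.6 CP10K, close to the 15.2 of mutant CON. The part of these differences in the results was not tested.

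Members were last divided by the sequence at their start. In beta cells, 24 members with a pyrimidine run of at least 8 in a window summed to 2.46-fold in WT Ex-4 against WT CON (2.23 to 2.72), and 39 with a shorter run to 2.37-fold (2.18 to 2.58). The 31 members with TGACG stood at 2.60-fold (2.38 to 2.85) and the 32 without it at 2.22-fold (2.03 to 2.43). The intervals overlapped in both of these divisions. For TGACG in mutant FSK against mutant CON the values were 0.675 with it (0.614 to 0.743) and 0.506 without (0.457 to 0.559), with intervals apart. The 25 members with CCGGAAG stood at 2.12-fold in WT Ex-4 (1.90 to 2.36) and 0.733-fold in mutant FSK (0.652 to 0.824), and the 38 without it at 2.57-fold (2.38 to 2.79) and 0.523-fold (0.479 to 0.570), with intervals apart in both comparisons. They were also apart in mutant CON against WT CON, at 1.93 (1.71 to 2.17) with CCGGAAG and 2.47 (2.26 to 2.69) without. They overlapped in mutant Ex-4 (0.991 and 0.980) and in WT FSK, where the ratio was lower with it (0.665) than without (0.725), the opposite order to mutant FSK. For TGACG, mutant CON against WT CON gave 2.27 on both sides, and the intervals overlapped in mutant Ex-4 and WT FSK too. The divisions by pyrimidine run overlapped in all 5 comparisons. A few well counted genes weigh most in such sums, and the intervals cover counting error and not the spread between members. Intervals that lie apart therefore do not show that the divisions differ, and this was not tested.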

How the data were processed

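Single nucleus RNA-seq (combinatorial barcoding, Parse Evercode) was deposited as 1 table. The authors aligned reads to mm39 with split-pipe, removed nuclei with extreme counts or features or with high mitochondrial content, integrated the nuclei in Seurat and assigned cell types. For each of 54 pooled columns the authors deposited the natural log of 1 plus the count per 10000 counts of that column. The paper also states that merged nuclei were normalized with SCTransform and downsampled to an equal number per sample. Whether pooled counts were raw or corrected by that step is not stated in the sources used here. The annotation release and the handling of introns and strand are not stated either. If the counts were corrected, the intervals given here describe counting error only approximately.

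Whole counts were recovered (100% of values within 0.001 of a whole number). Sums were given exact Clopper-Pearson intervals, single genes exact Poisson intervals and ratios of 2 counts exact conditional binomial intervals (95%), which cover counting error only. A count of 0 was kept as 0 with its exact interval, and the level that 3 counts would give was computed beside it. Fold calls used log2(CP10K + 1) at 1.5-fold over genes at or above the 40th percentile of the mean. Alternatives were other pseudocounts (0.1 and 0.01 times the median of kept genes), no filter, the 75th percentile, 2-fold, other totals, and other sets of members.

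Named genes were the 10 members with the most counts, the 3 largest and 3 smallest ratios among members with at least 50 counts in both beta cell columns, the paralogs, *Rpl13a*, *Rpl41*, the stalk genes and *Rpsa*. One gene that this rule names and 1 marker list are not reported here. Members and lists were chosen with earlier results of these data known. Positions and gene lengths are from GENCODE M39 (GRCm39), with a length for 97.4% of kept beta cell genes. Interval and count code was tested on simulated data. Computations ran in Python 3.11.15 with scipy 1.17.1, numpy 2.4.6, pandas 2.3.3 and matplotlib 3.10.9.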

Additional observations from a re-analysis of the deposited data

Results flagged for a closer look

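The ratio of summed ribosomal protein RNA after Ex-4 lay on opposite sides of 1 in the alpha cells of the 2 genotypes, at 1.83 in WT and 0.912 in the mutant, with each counting interval clear of 1. The difference between genotypes was not tested, since each ratio rests on 1 column per condition, and the mutant ratio was 0.993 when set against the shortest of 4 length classes of genes.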

How the results depend on the processing

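With 1 pooled column per condition no replicate could be left out. No paired analysis was possible because the sublibraries are pooled in every column. In 21 ratios of the sum (15 planned and 6 between genotypes under treatment, added after seeing the data), leaving out the paralogs, the 3 most counted members, or the 8 members listed at 0 in a condition kept each value within its counting interval. With totals freed of ribosomal RNA linked and mitochondrial genes, ratios in beta cells moved to 2.42 (WT Ex-4), 2.38 (mutant CON) and 0.524 (mutant FSK), in mutant FSK alpha cells to 0.936, and in mutant Ex-4 against WT Ex-4 beta cells to 0.977. Without *Rps14* (chosen after seeing the data) they were 2.45 in WT Ex-4 and 2.35 in mutant CON beta cells. Divided by the median ratio of all kept genes, beta cell values were 2.04 (WT Ex-4), 0.860 (WT FSK) and 0.637 (mutant FSK), 1.63 (mutant FSK against WT FSK), and mutant Ex-4 against WT Ex-4 turned to 1.03 (0.989 in alpha cells). Divided by the median of plain ratios in the shortest of 4 length classes (chosen after seeing the data, genes at 0 in the control left out), they were 1.34 (WT Ex-4) and 1.32 (mutant CON). They turned to 1.20 (WT FSK), 1.07 (mutant FSK) and 1.01 (mutant Ex-4 against WT Ex-4). In alpha cells they were 1.15 (WT Ex-4), 0.993 (mutant Ex-4), 1.13 (mutant CON), 1.11 (WT FSK) and 1.14 (mutant FSK), and in delta cells 1.39 (WT Ex-4), 1.36 (mutant CON) and, turned, 1.10 (WT FSK) and 1.06 (mutant FSK). Mutant FSK against WT FSK came to 1.20, 1.29 and 1.37 in beta, alpha and delta cells, and mutant Ex-4 against WT Ex-4 to 0.976 in alpha cells. The division is by construction nearer to 1 where short genes share the difference.

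Members past 1.5-fold in beta cells went from 0 to 50 higher (51 at the smaller pseudocount) in WT Ex-4, 2 (3) higher and 4 (6) lower in mutant Ex-4, 50 (56) higher and 1 (1) lower in mutant CON, 1 (1) higher and 18 (29) lower in WT FSK, and from 0 higher and 1 lower to 1 (1) and 31 (38) in mutant FSK on linear CP10K, where log2(CP10K + 1) no longer damps scarce genes. The other totals gave 1 higher in WT Ex-4 and in mutant CON, and a 2-fold threshold 0 lower in mutant FSK. Median log2 differences of kept members on linear CP10K were 0.93, -0.053, 0.91, -0.33 and -0.60 in beta cells (WT Ex-4, mutant Ex-4, mutant CON, WT FSK, mutant FSK), 0.64, -0.14, 0.65 and -0.37 in alpha cells (the first 4), and 1.10, 0.10, 0.94, -0.16 and -0.21 in delta cells. With no filter they were 0.090 and 0.088 in WT Ex-4 and mutant CON beta cells and 0.089 and 0.098 in delta cells, and with the other totals 0.13 in mutant CON beta cells and 0.14 in WT Ex-4 alpha cells. Scarce members limit all single-gene statements.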
